A study of Homo sapiens with 6 samples.

Results

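The genes described here are those of human ubiquitin ligase and deubiquitinase families, chosen by name. They are the genes whose symbol starts with TRIM, RNF, FBXO, FBXL, FBXW, CUL, HERC or USP followed by a digit, with BTRC and UBA6 added and a few symbols left out by the same rule. Of the 14884 named genes on the arrays, 266 were members: 73 RNF, 61 TRIM, 58 F-box (32 FBXO, 16 FBXL and 10 FBXW), 53 USP, 11 HERC and 8 CUL genes besides BTRC and UBA6. Family genes without a named probe set could not be counted, so the shares given below cover only the named part of each family. Total RNA was measured in SK-CO15 cells, a human colon adenocarcinoma line, in 3 NHE3kd samples (replicates 2, 3 and 10) and 3 Ctrl samples (replicates 1, 4 and 9). NHE3kd cells carried lentivirus with a pool of shRNAs directed against SLC9A3, the gene of the apical sodium-proton exchanger NHE3, and Ctrl cells carried lentivirus with a scrambled shRNA. In the study's methods the shRNAs were driven by a U6 promoter, and the cells were sorted for EGFP and selected with puromycin as a mixed population, so the lines are not single clones. Cells of both groups were grown to confluence. Whether replicates were separate cultures is not stated, and the p-values therefore cover the spread among these 6 samples only, which may be technical.

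Ubiquitin is a small protein that is attached to other proteins in a cascade. An activating enzyme (E1) charges ubiquitin, a conjugating enzyme (E2) carries it, and a ligase (E3) selects the substrate, while deubiquitinases take the ubiquitin off again. Cullins are the scaffolds of the largest class of ligases, and on CUL1 the substrate is held by an F-box protein (FBXO with various domains, FBXL with leucine-rich repeats, FBXW with WD40 repeats). Most RNF and TRIM proteins carry a RING domain that brings the E2 to the substrate, HERC proteins carry a HECT domain that takes over the ubiquitin itself, and the USPs are the largest family of deubiquitinases. In the intestinal epithelium such ligases set the turnover of β-catenin, cell cycle regulators, junction proteins and transporters.

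The names did not always match that function. Of the 266 members, 246 were protein coding, 10 were long noncoding RNAs and 10 were transcribed pseudogenes. USP6NL encodes a protein that activates the GTPase activity of Rab proteins and is no deubiquitinase, and FBXO5 encodes EMI1, an inhibitor of the anaphase-promoting complex. The HERC2P transcripts and RNF216P1 are copies of HERC2 and RNF216, and the USP17L genes are nearly identical to each other, so their values may stand for more than 1 gene.

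The deposited values are log2 differences from the mean of the Ctrl arrays, so each value is a difference and no level of expression is known. For that reason the cell line could not be checked against epithelial markers, and probe sets near background could not be left out. SLC9A3 itself was not analysed here, because no probe set carried its name, and the knockdown was not checked in these values. The study itself reported less NHE3 protein in NHE3kd cells by Western blot. NHE3kd was compared with Ctrl by limma, a linear model per probe set with a moderated variance, and p-values were adjusted by Benjamini-Hochberg over all 48144 probe sets. A gene is called higher or lower where this adjusted p was under 0.05. An exact permutation test of 3 arrays against 3 cannot give a two-sided p below 0.10, and it gave 0.10 for every called member.

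Among the 266 members, 30 were higher and 17 were lower in NHE3kd cells, and 219 did not pass the test. The share of members called was 17.7%, against 14.5% of all named genes, with 11.3% against 9.96% higher and 6.39% against 4.51% lower. Their median log2 fold change was 0.0092, against -0.00082 over all named genes. A change of 1.5-fold or more, whatever its p, was reached by 25 members (9.4%), against 8.86% of named genes. The members as a whole thus stood close to the background, and the changes described below are those of single genes. No family was tested as a set. The NHE3kd arrays did not overlap the Ctrl arrays for 105 members, among them all 47 called ones, while this held for 35.8% of named genes. FBXL4 and FBXO5 rose most, and the largest falls were those of RNF39 and USP53.

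**Figure D1:**
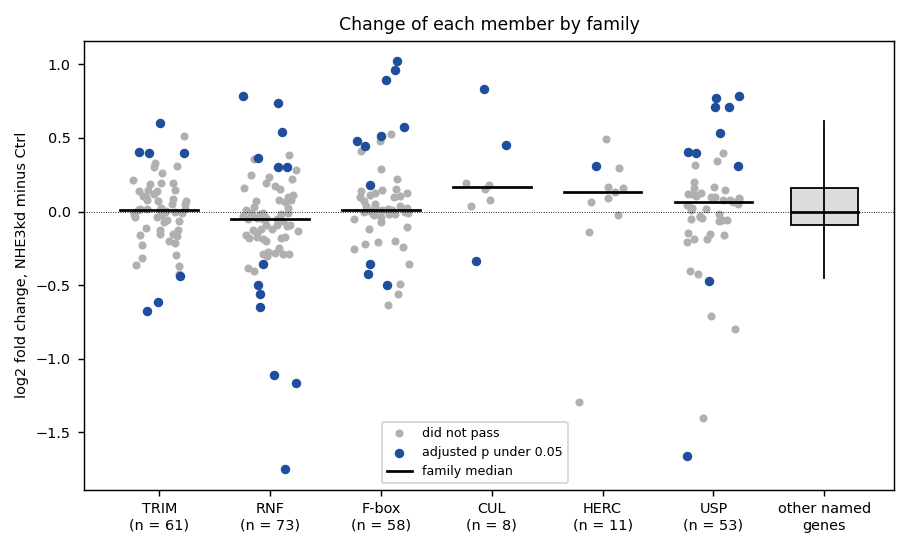
Log2 fold change, NHE3kd minus Ctrl, of each member by family (each point a gene, filled blue where the adjusted p from limma was under 0.05, black lines the family medians), with the other named genes as a box (25th to 75th percentile, line at the median, whiskers at the 5th and 95th percentile). Family medians lay between -0.050 (RNF) and 0.17 (CUL), and called members reached -1.75 (RNF39) and 1.02 (FBXL4).

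The counts by family stand beside 9.96% of named genes higher and 4.51% lower. Of the 61 TRIM genes 4 were higher and 3 lower (6.56% and 4.92%). Of the 73 RNF genes 6 were higher and 7 lower (8.22% and 9.59%), and of the 58 F-box genes 8 were higher and 3 lower (13.8% and 5.17%). Of the 8 cullins 2 were higher and 1 lower (25% and 12.5%), and of the 11 HERC genes 1 was higher (9.09%) and 0 were lower. Of the 53 USP genes 8 were higher and 2 lower (15.1% and 3.77%). The share called ran from 9.09% in HERC and 11.5% in TRIM to 37.5% in CUL, beside 14.5% of all named genes. The RNF median was the only negative one (-0.050, with 48 of 73 genes below 0), and the medians of TRIM (0.011), F-box (0.013), USP (0.066), HERC (0.13) and CUL (0.17) were positive. When each array was brought to a median of 0, every family median moved up by less than 0.01 and none of the 6 changed sign.

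**Figure D2:**
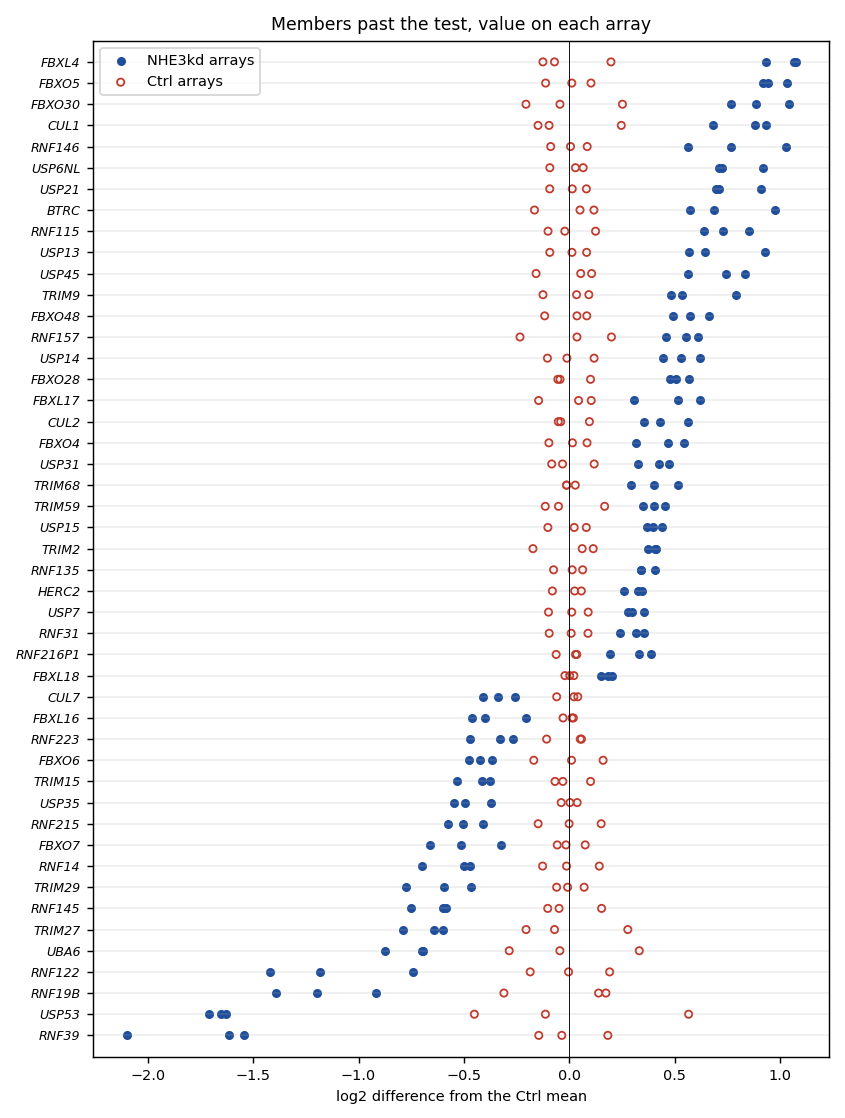
Values of the 47 called members on each array as log2 differences from the Ctrl mean (filled points NHE3kd, open points Ctrl, 3 arrays each), ordered by log2 fold change. In every row the NHE3kd points lie apart from the Ctrl points, with the widest spread of Ctrl arrays in USP53.

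The start of the cascade is represented among the members by UBA6, an E1 that charges ubiquitin and the modifier FAT10. UBA6 stood at -0.87, -0.70 and -0.70 on NHE3kd arrays 2, 3 and 10, against 0.33, -0.046 and -0.29 on Ctrl arrays 1, 4 and 9. All NHE3kd arrays were below all Ctrl arrays, but the Ctrl arrays were spread over a wider range than the gap between the groups. The log2 fold change was -0.76 (SE 0.16, limma adjusted p = 0.048), just inside the threshold. It was lost without NHE3kd 2, NHE3kd 3, NHE3kd 10 or Ctrl 4 (adjusted p up to 0.138) and with the arrays brought to a median of 0. Of the other E1 genes, 7 of 9 listed were measured. NAE1, a subunit of the E1 for the cullin-activating modifier NEDD8, had a log2 fold change of 0.64 (limma adjusted p = 0.025). MOCS3, which activates the sulphur-carrier modifier URM1, had 0.64 and UBA7, the E1 for interferon-induced ISG15, had -0.29, and both passed. Thus 3 of these 7 genes were called (42.9%, against 14.5% of named genes). Of the ubiquitin and ubiquitin-like modifier genes, 7 of 12 were measured and 0 passed (2 at an unadjusted p under 0.05 from limma), with a median of -0.13. Of 37 E2 genes 26 were measured. UBE2Q1 (0.46) and UBE2E3 (0.32) were higher, and UBE2H (-0.73), the E2 of the CTLH ligase, and UBE2B (-0.78), the RAD6 homologue of DNA damage tolerance, were lower. The other 22 did not pass, and they include the largest rise of the list (1.11). The share of E2 genes called was 15.4%, close to the 14.5% of named genes.

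The scaffolds came next, and 7 of the 8 cullins had a positive log2 fold change. CUL1, the scaffold of the SCF ligases that use F-box proteins, stood at 0.68, 0.88 and 0.93 on the NHE3kd arrays (replicates 2, 3 and 10 in this order here and below), against -0.15, -0.097 and 0.25 on the Ctrl arrays (replicates 1, 4 and 9). The groups were well apart, with Ctrl 9 as the highest Ctrl array, and the mean difference corresponded to 1.78-fold (SE 0.13 on the log2 scale, limma adjusted p = 0.018). CUL2, the scaffold that binds substrates through elongins B and C, stood at 0.35, 0.43 and 0.56 on NHE3kd arrays, against -0.042, -0.053 and 0.095 on Ctrl arrays. The lowest NHE3kd array was thus above the highest Ctrl array, at 1.37-fold (SE 0.070, limma adjusted p = 0.019). CUL7, the scaffold of the 3M complex, was the one cullin that fell, with -0.41, -0.26 and -0.34 on NHE3kd arrays, against 0.040, 0.021 and -0.061 on Ctrl arrays. Its NHE3kd arrays all lay below its Ctrl arrays, and its log2 fold change was -0.34 (SE 0.053, limma adjusted p = 0.020).

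**Figure D3:**
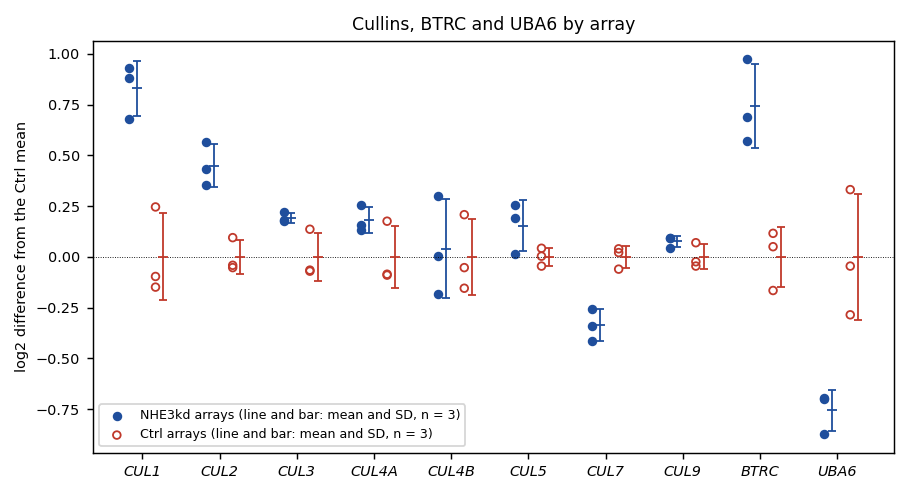
Values of the 8 cullins, BTRC and UBA6 on each array as log2 differences from the Ctrl mean (filled points NHE3kd, open points Ctrl, 3 arrays each, bars the mean and SD). CUL1, CUL2 and BTRC lie above their Ctrl arrays, CUL7 and UBA6 below theirs, and the arrays of CUL4A, CUL4B, CUL5 and CUL9 overlap.

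The other cullins did not pass. CUL3, the scaffold for BTB adaptors, stood at 0.18, 0.22 and 0.17 on NHE3kd arrays, against 0.14, -0.065 and -0.071 on Ctrl arrays, with a log2 fold change of 0.19 (SE 0.064, limma adjusted p = 0.156). Its groups did not overlap, but Ctrl 1 came close to the NHE3kd arrays, and the gene passed only in the fit without that array. CUL4A (0.18, SE 0.085), CUL5 (0.15, SE 0.069), CUL9 (0.076, SE 0.042) and CUL4B (0.041, SE 0.15) had overlapping arrays and adjusted p between 0.291 and 0.935. CUL4B had no settled direction, with -0.089 without NHE3kd 10 and -0.037 without Ctrl 4. The call of CUL1 was lost without NHE3kd 3, NHE3kd 10 or Ctrl 4 (adjusted p up to 0.0783), that of CUL2 without NHE3kd 3, Ctrl 1 or Ctrl 4 (up to 0.0764) and that of CUL7 without NHE3kd 2, NHE3kd 10, Ctrl 1 or Ctrl 4 (up to 0.078).

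The genes of F-box proteins held some of the largest rises. BTRC, or β-TrCP, which recognises phosphorylated β-catenin, IκB and EMI1, stood at 0.57, 0.69 and 0.97 on NHE3kd arrays, against 0.050, -0.17 and 0.12 on Ctrl arrays. All NHE3kd arrays were well above the Ctrl arrays, and the log2 fold change was 0.74 (SE 0.13, limma adjusted p = 0.024). FBXL4, a mitochondrial F-box protein that restrains mitophagy, had the largest rise of all members, with 1.06, 1.07 and 0.93 on NHE3kd arrays, against 0.20, -0.071 and -0.13 on Ctrl arrays. The groups were far apart relative to their spread, at 2.03-fold (log2 fold change 1.02, SE 0.097, limma adjusted p = 0.0054). FBXO5 had the smallest adjusted p of all members (0.0026 from limma). It stood at 0.92, 1.03 and 0.94 on NHE3kd arrays, against -0.11, 0.011 and 0.10 on Ctrl arrays, so that the gap between the groups was several times the range within either of them (log2 fold change 0.96, SE 0.065). FBXO30, a ligase subunit linked in mice to muscle atrophy, stood at 0.76, 1.04 and 0.88 on NHE3kd arrays, against 0.25, -0.045 and -0.21 on Ctrl arrays, and its log2 fold change was 0.90 (SE 0.13). FBXO28 was higher by a smaller amount but with little spread, at 0.57, 0.48 and 0.50 on NHE3kd arrays, against 0.10, -0.045 and -0.055 on Ctrl arrays (log2 fold change 0.52, SE 0.055, limma adjusted p = 0.0071).

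The promoters of FBXO5, FBXL4 and RNF39 are shown because these genes had the smallest adjusted p, the largest rise and the largest fall. Each is the stretch of 150 bases before an annotated start in RefSeq (GRCh38.p14, minus strand, written 5′ to 3′ along the gene). Capitals mark CCAAT or its complement ATTGG, the sequence TTTGAA or its complement TTCAAA (the core of an element of cell cycle genes known as CHR), and TATAAA.
FBXO5, the second of its 2 listed starts, chr6:152983042-152983191: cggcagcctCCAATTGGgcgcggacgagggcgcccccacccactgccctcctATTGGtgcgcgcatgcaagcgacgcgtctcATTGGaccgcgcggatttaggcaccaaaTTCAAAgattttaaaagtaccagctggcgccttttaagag
FBXL4, chr6:98947947-98948096: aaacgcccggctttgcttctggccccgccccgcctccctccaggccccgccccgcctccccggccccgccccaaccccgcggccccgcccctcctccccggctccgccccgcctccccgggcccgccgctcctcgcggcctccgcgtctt
RNF39, chr6:30075770-30075919: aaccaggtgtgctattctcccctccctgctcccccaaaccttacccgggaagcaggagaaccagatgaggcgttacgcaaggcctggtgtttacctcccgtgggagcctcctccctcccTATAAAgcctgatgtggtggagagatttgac
The FBXO5 stretch held CCAAT 1 time and ATTGG 3 times, one of them overlapping the CCAAT, and TTCAAA 1 time, while the window of 250 bases before the other listed start held none of the motifs searched. The FBXL4 stretch is rich in G and C and held none of the 3 motifs, and the RNF39 stretch held TATAAA 1 time near its end.

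The remaining called F-box genes changed by less. FBXO48 (0.57, SE 0.071), FBXL17 (0.48, SE 0.10), which clears faulty dimers of BTB proteins, FBXO4 (0.44, SE 0.077), reported to target cyclin D1, and FBXL18 (0.18, SE 0.031) were higher. The lower F-box genes were FBXO7 (-0.50, SE 0.093), a gene of inherited parkinsonism, FBXO6 (-0.42, SE 0.088), which recognises sugar chains on misfolded glycoproteins, and FBXL16 (-0.36, SE 0.071). FBXL18 had 2 probe sets with log2 fold changes of 0.072 and 0.28, neither of which passed alone, and its mean value lost the call when the first listed probe set was used. None of the 10 genes named FBXW passed (1 had an unadjusted p under 0.05 from limma), and their median was 0.012. BTRC, an F-box gene that was higher, is counted apart from them and from the F-box family. The largest values that did not pass were those of FBXO8 (-0.64, limma adjusted p = 0.124), FBXO32 (-0.56, 0.0526), the atrogin-1 of muscle, and FBXL7 (0.53, 0.0612).

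FBXL4, FBXO5 and FBXO28 kept their calls without any single array. FBXO48 lost its call without NHE3kd 3 (adjusted p = 0.0502), BTRC without NHE3kd 3, Ctrl 1 or Ctrl 4 (up to 0.0846), FBXO30 without NHE3kd 3, NHE3kd 10 or Ctrl 4 (up to 0.0714), and FBXL18 without any of the 6 arrays (up to 0.0894). FBXL17, FBXL16 and FBXO7 lost it without each array but NHE3kd 10 (up to 0.162, 0.142 and 0.117), FBXO4 without each but NHE3kd 2 (up to 0.0866), and FBXO6 without each but Ctrl 1 (up to 0.155).

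RNF genes were the one family with more falls than rises among called genes, though only by 7 against 6. RNF39, a RING gene in the class I region of the major histocompatibility complex, had the largest fall of all members, with -2.10, -1.61 and -1.55 on NHE3kd arrays, against -0.15, -0.036 and 0.18 on Ctrl arrays. NHE3kd 2 was the lowest array, all NHE3kd arrays were far below the Ctrl arrays, and the mean was 3.37-fold lower (log2 fold change -1.75, SE 0.17, limma adjusted p = 0.0057). The gene has 7 probe sets, 3 of them with distinct values, and all 7 were called, with log2 fold changes from -1.80 to -1.56. RNF19B, a membrane-bound ligase of the RING-between-RING type, stood at -1.39, -1.20 and -0.92 on NHE3kd arrays, against 0.17, 0.14 and -0.31 on Ctrl arrays. RNF122, which also has a transmembrane segment, stood at -1.42, -1.18 and -0.74 on NHE3kd arrays, against -0.19, -0.0044 and 0.19 on Ctrl arrays. Neither gene had overlapping groups, but the spread within the groups was wider than for RNF39, and the log2 fold changes were -1.17 (SE 0.18) and -1.11 (SE 0.19). RNF145, a ligase of the endoplasmic reticulum in sterol regulation, was lower with less spread, at -0.60, -0.75 and -0.59 on NHE3kd arrays, against 0.15, -0.049 and -0.10 on Ctrl arrays (-0.65, SE 0.083, limma adjusted p = 0.012). RNF14 (-0.56, SE 0.093), a RING-between-RING ligase that acts at stalled ribosomes, RNF215 (-0.50, SE 0.087) and RNF223 (-0.36, SE 0.073) also fell.

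Among the RNF genes that rose, RNF146, which binds poly(ADP-ribose) and marks axin for degradation in the Wnt pathway, stood at 0.56, 1.03 and 0.77 on NHE3kd arrays, against -0.089, 0.0051 and 0.084 on Ctrl arrays. Its NHE3kd arrays were spread more widely than its Ctrl arrays but did not reach them (log2 fold change 0.78, SE 0.12, limma adjusted p = 0.020). RNF115, a cytosolic ligase also called BCA2, stood at 0.64, 0.73 and 0.85 on NHE3kd arrays, against -0.10, -0.022 and 0.12 on Ctrl arrays (0.74, SE 0.081, limma adjusted p = 0.0076). The smaller rises were those of RNF157 (0.54, SE 0.12), RNF135 (0.36, SE 0.047), the ligase that activates the RNA sensor RIG-I, RNF31 (0.30, SE 0.059), the catalytic subunit of the complex that makes linear ubiquitin chains, and the pseudogene RNF216P1 (0.30, SE 0.061). Beside RNF31, RBCK1, another subunit of the linear chain complex, had a log2 fold change of -0.70 (limma adjusted p = 0.018).

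RNF39, RNF145 and RNF115 kept their calls without any single array. RNF135 lost its call without NHE3kd 3 (adjusted p = 0.0503), RNF19B without NHE3kd 2, NHE3kd 3 or Ctrl 4 (up to 0.0779) and RNF146 without NHE3kd 10, Ctrl 1 or Ctrl 4 (up to 0.0757). RNF122 lost it without NHE3kd 2, NHE3kd 3, Ctrl 4 or Ctrl 9 (up to 0.104), RNF14 without any NHE3kd array or Ctrl 1 (up to 0.0771), and RNF157 and RNF215 without any NHE3kd array or Ctrl 4 (up to 0.136 and 0.104). RNF216P1 lost it without each array but NHE3kd 2 (up to 0.123), and RNF223 and RNF31 without each but Ctrl 9 (up to 0.137 and 0.13).

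Of the TRIM genes 7 of 61 were called (11.5%, against 14.5% of named genes), and the largest rise was 1.52-fold. TRIM9, a ligase best known from neurons, stood at 0.48, 0.53 and 0.79 on NHE3kd arrays, against 0.034, 0.092 and -0.13 on Ctrl arrays. NHE3kd 10 was the highest array, and the log2 fold change was 0.60 (SE 0.10, limma adjusted p = 0.024). TRIM68 (SE 0.062), TRIM59 (SE 0.081) and TRIM2 (SE 0.079), which in mice targets the neurofilament light chain, each had a log2 fold change of 0.40. TRIM27, a nuclear ligase also called RET finger protein, was lower, at -0.79, -0.60 and -0.64 on NHE3kd arrays, against -0.21, -0.071 and 0.28 on Ctrl arrays (-0.68, SE 0.13, limma adjusted p = 0.038). TRIM29, an epithelial TRIM protein without a RING domain that is linked to DNA damage signalling, stood at -0.60, -0.78 and -0.47 on NHE3kd arrays, against -0.061, 0.070 and -0.0087 on Ctrl arrays. Its groups were well apart, with a log2 fold change of -0.61 (SE 0.086, limma adjusted p = 0.015). TRIM15, a component of focal adhesions, fell by 0.44 on the log2 scale (SE 0.065). TRIM27 has 8 probe sets, 6 with distinct values, and 5 were called, while TRIM15 has 8, only 4 with distinct values, and all 8 were called, and TRIM32 had the largest value that did not pass (0.52, limma adjusted p = 0.104). No called TRIM gene kept its call in all 6 fits that leave out 1 array. In those fits the called named genes also numbered fewer, 895 to 1918 against 2154 with all arrays. TRIM29 lost it without Ctrl 4 (adjusted p = 0.0594), TRIM15 without NHE3kd 3 or NHE3kd 10 (up to 0.0527), TRIM68 without NHE3kd 10, Ctrl 4 or Ctrl 9 (up to 0.0725) and TRIM9 without NHE3kd 3 or any Ctrl array (up to 0.077). TRIM2 lost it without any NHE3kd array or Ctrl 1 (up to 0.137), TRIM27 without any NHE3kd array or Ctrl 4 (up to 0.109), and TRIM59 without each array but Ctrl 4 (up to 0.142).

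Among the HERC genes, HERC2, a giant HECT ligase of DNA damage signalling, was higher. It stood at 0.33, 0.26 and 0.35 on NHE3kd arrays, against 0.056, -0.081 and 0.025 on Ctrl arrays, with no overlap (log2 fold change 0.31, SE 0.049, limma adjusted p = 0.020). The call was lost without any NHE3kd array or Ctrl 4 (adjusted p up to 0.0692). Of its transcribed copies, HERC2P7 had 0.49 (adjusted p = 0.0502), and HERC2P10, HERC2P9, HERC2P2 and HERC2P3 had log2 fold changes between -0.14 and 0.17 and adjusted p of 0.237 or more. HERC3, a small HERC ligase, had the widest difference of the family, with -1.36, -1.36 and -1.17 on NHE3kd arrays, against 0.61, -0.0034 and -0.61 on Ctrl arrays. The groups did not overlap, but the Ctrl arrays alone covered a range of more than 1 log2 unit, and the log2 fold change of -1.30 (SE 0.30) did not pass (limma adjusted p = 0.0614). HERC5, the interferon-induced ligase for ISG15, had 0.16 (adjusted p = 0.322), and HERC1, HERC4 and HERC6 had values between 0.062 and 0.29 and did not pass.

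Of the 10 called genes of the USP family 8 were higher, and of all called named genes 1483 of 2154 were higher as well. USP21, which removes ubiquitin from histone H2A among other substrates, stood at 0.69, 0.71 and 0.91 on NHE3kd arrays, against -0.094, 0.080 and 0.013 on Ctrl arrays. NHE3kd 10 was the highest array and the groups were far apart (log2 fold change 0.77, SE 0.077, limma adjusted p = 0.0062). USP6NL, the Rab regulator, stood at 0.92, 0.71 and 0.72 on NHE3kd arrays, against 0.028, -0.093 and 0.065 on Ctrl arrays (0.78, SE 0.075, limma adjusted p = 0.0056). USP13, which deubiquitinates the autophagy protein beclin-1, stood at 0.57, 0.93 and 0.64 on NHE3kd arrays, against 0.012, -0.093 and 0.081 on Ctrl arrays. It was highest on NHE3kd 3, with a log2 fold change of 0.71 (SE 0.10). USP45, which acts on the DNA repair nuclease subunit ERCC1, stood at 0.56, 0.74 and 0.83 on NHE3kd arrays, against 0.10, -0.16 and 0.053 on Ctrl arrays, also with a log2 fold change of 0.71 (SE 0.099). USP14, a deubiquitinase bound to the proteasome, stood at 0.45, 0.62 and 0.53 on NHE3kd arrays, against 0.12, -0.012 and -0.10 on Ctrl arrays (0.53, SE 0.074). The other rises were those of USP31 (0.41, SE 0.068), USP15 (0.40, SE 0.056), which acts in TGF-β signalling, and USP7 (0.31, SE 0.057), which stabilises MDM2.

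Only USP53 and USP35 were lower. USP53, a protein of tight junctions, stood at -1.65, -1.63 and -1.71 on NHE3kd arrays, against 0.56, -0.11 and -0.45 on Ctrl arrays. The NHE3kd arrays agreed closely (SD 0.043, n = 3) while the Ctrl arrays were spread widely (SD 0.52, n = 3), and the mean was 3.17-fold lower (log2 fold change -1.66, SE 0.25, limma adjusted p = 0.018). USP35 stood at -0.50, -0.55 and -0.37 on NHE3kd arrays, against -0.039, 0.0026 and 0.037 on Ctrl arrays (-0.47, SE 0.055, limma adjusted p = 0.0089). Of the 4 measured USP17L genes none passed, with -1.41 for USP17L12 (limma adjusted p = 0.0569), -0.80 for USP17L15 (0.0888), -0.71 for the pseudogene USP17L9P (0.0621) and -0.19 for USP17L10 (0.678). USP17L9P has 2 probe sets at -1.41 and -0.022, the first with the same log2 fold change as USP17L12. USP4 lay just outside the threshold (-0.43, limma adjusted p = 0.0504).

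USP21, USP6NL and USP35 kept their calls without any single array. USP13 lost its call without Ctrl 4 (adjusted p = 0.0655), USP45 without NHE3kd 3 (0.065), USP15 without NHE3kd 3 or NHE3kd 10 (up to 0.064) and USP14 without NHE3kd 3, NHE3kd 10 or Ctrl 4 (up to 0.0594). USP7 and USP53 lost theirs without any NHE3kd array or Ctrl 4 (up to 0.114 and 0.0752), and USP31 without each array but Ctrl 1 (up to 0.0783).

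The other genes of the pathway were counted from lists made by role. Among the cullin partners and adaptors, 36 of 50 listed genes were measured, and 17 were higher (47.2%, against 9.96% of named genes) and 0 lower. Their median was 0.27, with 23 genes above 0 and 13 below (lowest -0.71). Those with the largest change were DTL (1.83), the CUL4 receptor that acts during DNA replication, KLHL9 (1.26) and KLHL20 (0.86), both BTB adaptors of CUL3, and CKS1B (1.13), a cofactor of an SCF receptor for cell cycle inhibitors. All genes of the COP9 signalosome, which takes NEDD8 off cullins, were measured, and of these 10 genes only COPS3 passed (0.46). The share called was 10%, against 14.5% of named genes. Of the 16 genes of the anaphase-promoting complex and its activators 5 were higher and 1 was lower (31.2% and 6.25%, against 9.96% and 4.51% of named genes). The mitotic activator CDC20 had a log2 fold change of 1.09, the subunits ANAPC16, ANAPC7 and ANAPC1 had 0.93, 0.60 and 0.48, and FZR1, the activator of late mitosis and G1, had -0.37. Proliferation markers, given with the members of the cell cycle, were higher beside these genes, and their part in the result was not tested.

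Ligases and deubiquitinases outside the member families moved in both directions. Over all named genes 9.96% were higher and 4.51% lower. Of the other HECT ligases 14 of 21 were measured, and UBE3B (0.56) and WWP2 (0.53) were higher (14.3%) and 0 lower. Of the other RING and U-box ligases 35 of 67 were measured, with 4 higher and 4 lower (11.4% each). BARD1 (1.06), a RING protein of homologous recombination, and PELI2 (0.72), a ligase of Toll-like receptor signalling, were higher, and PELI1 (-0.94), its relative, and BIRC2 (-0.84), the inhibitor of apoptosis cIAP1, were lower. Of the deubiquitinases outside the USP family 22 of 35 were measured, with 3 higher and 2 lower (13.6% and 9.09%). UCHL5, which is bound to the proteasome, had a log2 fold change of 0.73 and PAN2, a subunit of a deadenylase with a USP-like domain, had 0.66, while OTUD6B had 0.26 and YOD1, an OTU protease of protein quality control, had -1.04. Of 49 listed proteasome genes only 3 had a named probe set, so the proteasome could not be described, and its maturation factor POMP was lower (-0.26).

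**Figure D4:**
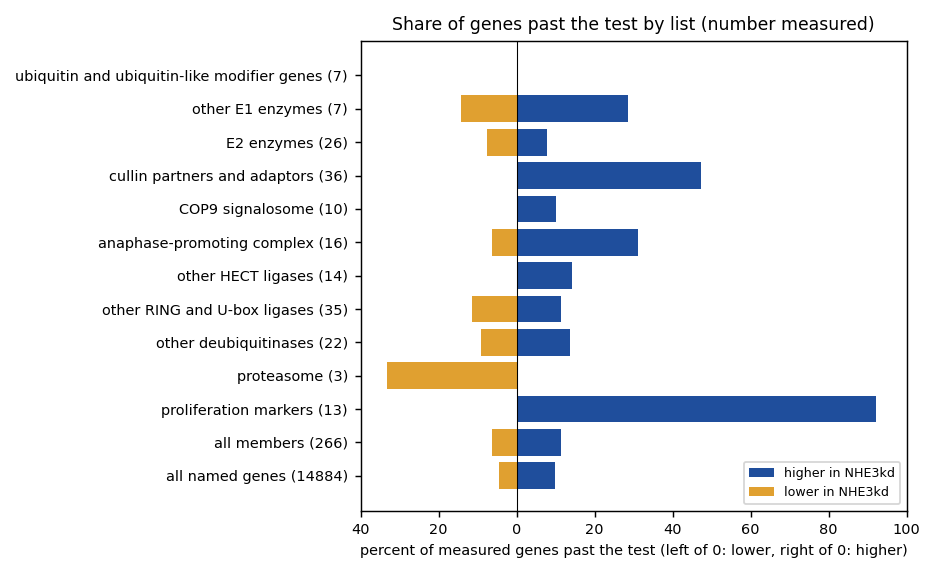
Percent of measured genes called higher (blue, right of 0) and lower (orange, left of 0) in NHE3kd cells for each list of ubiquitin pathway genes, for the proliferation markers, for the 266 members and for all named genes, with the number measured in brackets. The largest shares higher were those of the proliferation markers (92.3%), the cullin partners (47.2%), the anaphase-promoting complex (31.2%) and the other E1 enzymes (28.6% of 7 genes). All members stood at 11.3% and all named genes at 9.96%.

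Among members grouped by role, those of the cell cycle were all higher where they passed. Of 22 measured genes 7 were higher and 0 lower (31.8% higher, against 9.96% of named genes), with a median of 0.14, and these were FBXO5, CUL1, BTRC, USP13, FBXO4, TRIM59 and HERC2. Beside them, 12 of 13 measured proliferation markers were higher and 0 lower, with a median of 1.17 and values between 0.27 and 2.06. MKI67 (2.06), CDK1 (1.76), TOP2A (1.76) and TYMS (1.36) had the largest changes, and the part of proliferation in the members' changes was not tested. Of 25 listed genes linked to DNA damage signalling only 15 were measured. Of these, HERC2 and USP7 were higher and TRIM29 was lower (20% called, against 14.5% of named genes). Of 15 measured interferon-induced members only FBXO6 passed, and it was lower (6.67% called, against 14.5% of named genes). The list had a median of -0.0077, and with so few genes 1 call says little about it. A list of RNF ligases anchored in membranes had 24 measured genes. Of these 3 were lower (RNF122, RNF145 and RNF215, 12.5%, against 4.51% of named genes) and 0 higher, while 7 had an unadjusted p under 0.05 from limma. The list did not hold RNF19B, a membrane-bound ligase that was lower too (-1.17).

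Of the chromosomes, chromosome 6 held the most called members, with 5 higher and 4 lower of 20. Over all its 760 named genes 17.2% were higher and 5.13% lower, and on chromosomes 10 and 18 the share of named genes that were higher was above this (20.6% and 23.7%). In the order of genes along it, TRIM27, RNF39, TRIM15 and CUL7 on the short arm were lower, and FBXL4, USP45, RNF146, FBXO30 and FBXO5 on the long arm were higher. Between FBXL4 and FBXO5, 69 of 207 named genes were higher and 2 lower, and without the members 64 of 200 (32%) were higher. Many genes just before FBXL4 were higher too. Of the 100 named genes before it 34 were higher (34%) and 0 lower, while of the 385 before those 14 (3.64%) were higher and 36 (9.35%) lower. These limits were chosen after the values had been seen, so no test is given. The 5 higher members thus lay among neighbours of which many were also higher. Genes after FBXO5 were not counted. Several of those were higher too, among them MTRF1L, ARID1B and TBP, and only SYNJ2 was lower, so FBXO5 does not mark an end of the higher genes. Of the 7 members in the stretch, RNF217 (-0.066) and its antisense transcript RNF217-AS1 (-0.033) did not pass. On the short arm, TRIM31, TRIM40, TRIM10 and TRIM26, which neighbour RNF39 and TRIM15, had log2 fold changes between -0.23 and 0.14 and did not pass.

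**Figure D5:**
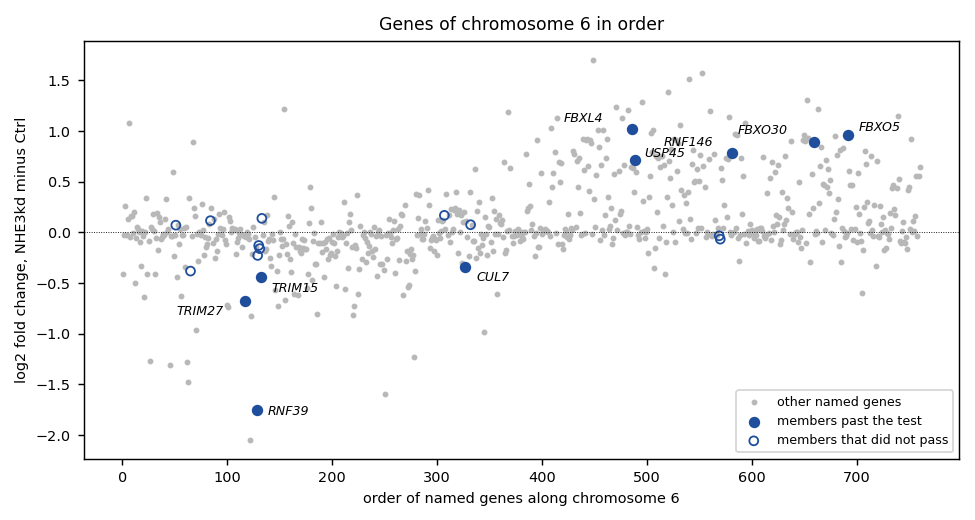
Log2 fold change, NHE3kd minus Ctrl, of the named genes of chromosome 6 in their order along it (grey points, with members in blue, filled where the adjusted p from limma was under 0.05). The 5 higher members from FBXL4 to FBXO5 lie in a stretch where 33.3% of named genes were higher, and the 4 lower members lie before it. Higher genes also lie just before and after this stretch.

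Promoter sequence was compared over windows of 250 bases before each start in the same RefSeq table, in which 198 of the 266 members had 284 windows. All motifs were searched on both strands. CCAAT was found in 39% of the 41 windows of higher members and in 37.5% of the 16 windows of lower members, against 32% of all 35116 windows. TTTGAA was found in 7.32% and 18.8% of these windows, against 13.3% of all windows. The E2F sequences TTTCCCGC and TTTGGCGC were found in 0 windows of called members, against 1.93% of all windows. TATAAA was found in 2.44% of windows of higher members and 12.5% of windows of lower members, against 10.7% of all windows. The AP-1 sequence TGACTCA was found in 1 window of a higher member (2.44%) and in 0 windows of lower members, against 4.2% of all windows. CCAAT and TTTGAA occurred together at 1 start each of FBXO5, RNF14 and RNF145, and in 4.69% of all windows. The numbers of windows are small and several starts of a gene overlap, and a match is a description of the letters only.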

How the data were processed

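The authors summarised the probes of Affymetrix Human Gene 2.0 ST arrays with RMA16 in GeneSpring GX (version not given in the sources used here). They deposited log2 values centred on the Ctrl mean of each probe set. The scale (log2), the centring (within 1.27e-06 of 0 in Ctrl) and the direction (NHE3kd minus Ctrl) are known, and the level of expression is not. The submitters' processing notes name the build hg19. Values ran from -4.36 to 3.84 over 48144 probe sets, with array medians of -0.00027, -0.0085 and -0.018 (NHE3kd 2, 3 and 10) and -0.0058, 0.0018 and -0.0010 (Ctrl 1, 4 and 9). The SD over probe sets was 0.31 to 0.33 on NHE3kd arrays and 0.10 to 0.14 on Ctrl arrays. Precision is limited by the number of arrays.

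In a table of the platform's annotation, 16098 probe sets had 1 symbol, 0 had several and 32046 had none and are left unnamed. All 266 members were matched in the RefSeq table of GRCh38.p14, used for names, biotype and gene order. Some symbols are not reported here.

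The two-sided tests used limma 3.58.1 in R 4.3.3 (lmFit and eBayes) over all probe sets, with no covariates. For the 779 genes with several probe sets, 14 of them members, the test was made on the mean, with that fit's prior variance, and the gene's p was read off the Benjamini-Hochberg curve of the probe sets. The steps were tested on simulated data. The text names every cullin, BTRC, UBA6, the called members of each other family (up to 12 in a direction) and up to 4 called genes of each pathway list. Members and lists were chosen with earlier results of these data known, and members singled out for large values that did not pass, or as neighbours, and RBCK1 were chosen after their values were seen. FZR1 and the chromosome 6 genes MTRF1L, ARID1B, TBP and SYNJ2 were likewise named outside this rule. The alternatives were an unmoderated t-test, array weights, arrays brought to a median of 0, the replicate number as a covariate, named genes only, the first listed probe set, the limma test for changes beyond 1.5-fold, and each array left out in turn.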

Additional observations from a re-analysis of the deposited data

How the results depend on the processing

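Called members numbered 30 higher and 17 lower. With an unmoderated t-test 6 and 0 remained (FBXL18, FBXL4, FBXO28, FBXO5, USP21 and USP6NL, with 83 members at an unadjusted p under 0.05), and in limma's test against a change of 1.5-fold 0 and 0 (11 at an unadjusted p under 0.05). With the replicate number as a covariate 27 were higher and 26 lower, and 6 of the 47 lost their call (FBXL17, RNF216P1, RNF31, TRIM2, TRIM59 and UBA6). Calls also rose over all named genes in that fit, from 2154 to 2499 (16.8%, against 19.9% of members). With each array left out in turn, 9 to 26 were higher and 5 to 17 lower. The higher count was 9 without NHE3kd 3, 13 without Ctrl 4 and 15 without NHE3kd 10, and the lower count was 5 without NHE3kd 2, NHE3kd 3 or Ctrl 4. Called genes per family under the unmoderated t-test, the test against 1.5-fold and the fits without 1 array were 0, 0 and 2 to 5 for TRIM (7 in the limma fit of all arrays), 0, 0 and 4 to 14 for RNF (13), 4, 0 and 3 to 8 for F-box (11), 0, 0 and 0 to 3 for CUL (3), 0, 0 and 0 to 2 for HERC (1), and 2, 0 and 4 to 11 for USP (10). HERC had 3 called genes with array weights, 2 with the arrays brought to a median of 0 and 3 with named genes only. For all named genes (2154) the values were 430, 82 and 895 to 1918, and for the higher cullin partners and adaptors (17) they were 3, 1 and 8 to 14. CUL4B changed sign without NHE3kd 10 (-0.089) and without Ctrl 4 (-0.037), and its log2 fold change over all fits without 1 array ran from -0.089 to 0.15. With array weights and with named genes only all 47 called members kept their call, with the arrays at a median of 0 all but UBA6, and with the first listed probe set all but FBXL18. Of the 47, 9 kept it without each single array and 23 lost it without 4 or more of the 6. The causes were not tested. No paired analysis was possible because the groups share no replicate number.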
